A study of Homo sapiens with 38 samples.

Results

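CDT1, MCM2, MCM5, PRIM1 and UHRF1 encode proteins that prepare and start DNA synthesis, and their mRNA levels were followed in A549 cells, an epithelial line derived from a human lung adenocarcinoma. The 5 genes were taken as the probe sets whose only gene symbol was one of these names. Each gene had 1 probe set, so they made up 5 of 11893 distinct genes and 5 of 14488 probe sets. The study crossed knockdown of ORMDL3, a regulator of sphingolipid synthesis, with a time course of the cytokine interleukin 1 beta (IL1B). Knockdown cells had received a pool of siRNAs (ON-TARGETplus SMARTpool) against ORMDL3, and control cells carry no label beyond that word, and the sources used here do not give their transfection. Per the labels' protocols, cells of passage 90 to 110 were silenced for 48 h, kept serum free for 24 h and stimulated with 1 ng/ml IL1B. RNA was taken at 0 h, before IL1B, and at 2, 4, 8 and 10 h. Every group held 4 arrays, except knockdown at 0 h (replicates 1, 2 and 4) and control at 8 h (replicates 1, 2 and 3), with 3 each. Each arm thus had 19 arrays.

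A cell marks its replication origins once per cycle. In G1 the origin recognition complex, CDC6 and CDT1 load the ring of MCM2 to MCM7 onto DNA, a step called licensing. In S phase the loaded ring is switched on as the replicative helicase, and primase, whose catalytic subunit is PRIM1, lays down the RNA primers from which DNA polymerases extend. UHRF1 reads newly copied, half-methylated DNA and brings in the methyltransferase DNMT1. Transcription of many of these genes peaks around the entry into S phase under the control of E2F factors.

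IL1B was followed by lower levels of all 5 genes, which were chosen with earlier results of these data known. Over the mean of the 4 hours, each fell by 0.19 to 0.48 on the log2 scale in knockdown cells and by 0.23 to 0.55 in control cells, beside 19% of all probe sets lower in knockdown and 21.2% in control cells. PRIM1 and UHRF1 stood lowest at 4 h in both arms, MCM5 at 8 h and MCM2 at 10 h. In control cells UHRF1 was about as low at 8 h as at 4 h. Averaged over the 5 hours, MCM2 and PRIM1 were lower and UHRF1 higher in knockdown than in control cells, by small amounts. At 0 h, before IL1B, none of these differences was called. Whether the arms differed in their IL1B response was tested as well, and no gene of the 5 passed the threshold.

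Values are log2 levels as deposited by the authors, on which a difference of 1 is a doubling. Group values are given as mean ± SD. The error of a log2 difference is the standard error from limma, fitted to all 38 arrays, and its p carries the Benjamini-Hochberg adjustment across the 14488 probe sets. A probe set is called higher or lower when that adjusted p is under 0.05. Nothing in the labels ties replicates to separate cultures. The p-values therefore rest on the spread between these samples alone, which may be technical. There were no untreated arrays after 0 h, so IL1B and further hours without serum cannot be told apart. These are bulk samples, in which fewer cells in a given cycle phase and less RNA per cell cannot be told apart.

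ORMDL3 itself was checked first. Its level lay between 5.00 and 5.57 in knockdown arrays and between 6.78 and 7.77 in control arrays, without overlap. Averaged over the hours it was lower by 1.99 ± 0.05 on the log2 scale (log2 difference -1.99, limma adjusted p = 4.62e-25), which left 25.1% of the control level. Array medians lay between 8.02 and 8.19. Of 11 epithelial markers 8 were measured. KRT8, a keratin of simple epithelia, lay between 12.8 and 13.3 in knockdown and between 12.5 and 13.4 in control arrays, and EPCAM lay between 6.10 and 7.37 and between 6.40 and 7.45. Of these 8 markers, 6 were lower and 1, LAMP3, was higher after IL1B in each arm over the mean of 4 hours, with a median of -0.28 in knockdown and -0.32 in control cells. CDH1, the cadherin of epithelial junctions, was lower by 0.62 ± 0.09 in knockdown and by 0.81 ± 0.08 in control cells. At 10 h the median of the 8 was -0.43 and -0.51. The part of this fall in the results below was not tested. NKX2-1, SFTPB and SFTPC, markers of alveolar cells, were not among the measured genes with 1 symbol. Of 6 leukocyte markers, CD14 and ITGAM were measured. CD14 lay between 7.07 and 8.01 in knockdown and between 7.27 and 8.05 in control arrays. ITGAM lay between 6.22 and 6.93 and between 5.99 and 7.08. The levels of EPCAM, all under the array medians, overlapped those of both genes. Of 6 fibroblast and endothelial markers, COL1A1 and CDH5 were measured. The mean of these last 2 genes was higher after IL1B, between 6.46 and 6.90 in knockdown arrays after 0 h against 5.84 to 6.16 at 0 h, and between 6.35 and 6.79 in control arrays after 0 h against 5.79 to 6.27 at 0 h. CDH5 carried that change (log2 difference 1.31 ± 0.10 in knockdown and 1.13 ± 0.09 in control cells), and its part in the results below was not tested. The mean level of 104 small nucleolar RNA probe sets varied between 6.86 and 7.85 over knockdown arrays and between 6.92 and 7.96 over control arrays.

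The sequences around the transcription starts are shown as background, because E2F factors are known to act at such sites. A part of E2F factors in the changes reported here was not tested. RefSeq windows on GRCh38.p14, from 250 bases before to 50 bases after an annotated start, matched 4 of the 5 genes, with 1 window for CDT1, MCM2 and PRIM1 and 3 for UHRF1. MCM5 was not matched. Capitals mark the letters TTCCCGC on either strand, the core of the E2F motif, and its 3 variants, also on either strand. The first variant was TTCGCGC. The next variant searched for was TTGGCGC. The last was TTGCCGC. These strings of the E2F type were chosen with the windows known. The windows are CDT1 at chr16:88803539-88803838 on the plus strand, MCM2 at chr3:127598161-127598460 on the plus strand, PRIM1 at chr12:56752274-56752573 on the minus strand, and the first UHRF1 window at chr19:4909251-4909550 on the plus strand. Each is written 5′ to 3′ along its gene.
CDT1: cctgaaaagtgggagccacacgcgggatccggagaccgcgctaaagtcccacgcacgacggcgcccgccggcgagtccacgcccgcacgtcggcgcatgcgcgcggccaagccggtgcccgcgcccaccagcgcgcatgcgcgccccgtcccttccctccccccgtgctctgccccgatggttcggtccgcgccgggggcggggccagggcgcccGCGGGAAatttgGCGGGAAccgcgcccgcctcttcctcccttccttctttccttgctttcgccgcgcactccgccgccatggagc
MCM2: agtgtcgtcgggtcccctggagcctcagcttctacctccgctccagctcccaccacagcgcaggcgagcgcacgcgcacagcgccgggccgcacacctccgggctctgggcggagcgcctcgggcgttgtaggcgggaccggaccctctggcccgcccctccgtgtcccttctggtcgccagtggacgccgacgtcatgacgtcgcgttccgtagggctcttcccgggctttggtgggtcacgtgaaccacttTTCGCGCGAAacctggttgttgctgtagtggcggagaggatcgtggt
PRIM1: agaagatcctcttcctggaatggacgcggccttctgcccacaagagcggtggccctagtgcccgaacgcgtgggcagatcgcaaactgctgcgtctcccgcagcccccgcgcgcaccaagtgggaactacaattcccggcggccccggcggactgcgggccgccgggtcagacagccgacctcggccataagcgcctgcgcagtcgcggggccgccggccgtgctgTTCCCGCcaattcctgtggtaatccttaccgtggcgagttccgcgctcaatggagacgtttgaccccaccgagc
UHRF1: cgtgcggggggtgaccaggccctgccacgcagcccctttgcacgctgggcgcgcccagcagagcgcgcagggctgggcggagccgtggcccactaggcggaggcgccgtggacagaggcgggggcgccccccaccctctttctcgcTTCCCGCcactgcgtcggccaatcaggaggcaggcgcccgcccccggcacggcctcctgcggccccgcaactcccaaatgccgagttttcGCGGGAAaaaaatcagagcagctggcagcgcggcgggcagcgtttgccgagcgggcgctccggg

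The CDT1 window held 2 matches, both shortly before the start, at positions -35 to -29 and -23 to -17. In MCM2 there were 2 matches, on opposite strands, that overlapped each other at positions 4 to 10 and 7 to 13. PRIM1 had 1 match, at -24 to -18, whose last base was also the first of a CCAAT. The UHRF1 windows held 2, 1 and 0 matches. Of all 35116 windows of this length, 13% held 1 or more of these letters on either strand. CCAAT, the letters bound by the factor NF-Y, occurred in PRIM1 and in the first 2 UHRF1 windows, and in 34.6% of all windows. TTTGAA, the core of the cell cycle homology region, occurred in none of the 6 windows and in 15.2% of all windows. A match is a run of letters and not a measured binding site.

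**Figure D1:**
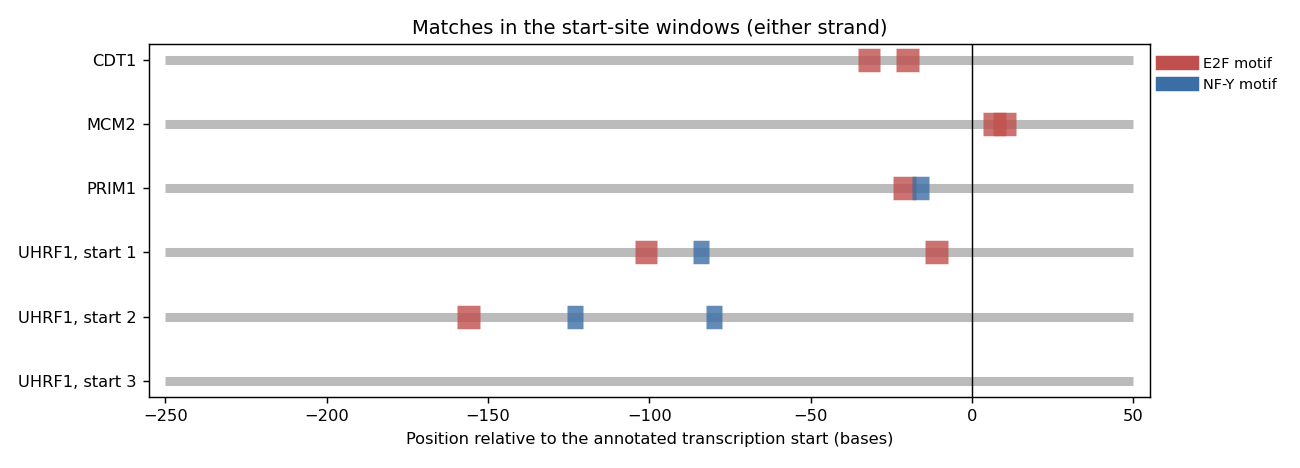
Position of each match, in bases from the annotated transcription start (vertical line), in the 6 RefSeq windows of CDT1, MCM2, PRIM1 and UHRF1, with E2F strings in red and CCAAT (NF-Y) in blue, on either strand. All 4 genes had a window with an E2F string, and the third UHRF1 window had neither motif.

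CDT1, the factor that brings the MCM ring to origins, was the most variable of the 5 genes among replicates. In knockdown cells its arrays stood at 8.06, 8.30 and 8.52 at 0 h, 8.01, 8.01, 7.93 and 8.39 at 2 h, 7.73, 7.75, 7.84 and 8.10 at 4 h, and then 7.96, 7.95, 7.99 and 8.06 at 8 h. The values at 10 h were 7.80, 7.65, 7.69 and 8.12. In control cells they stood at 8.17, 8.50, 8.33 and 8.54 at 0 h, 7.75, 7.97, 7.97 and 8.24 at 2 h, 7.80, 7.50, 7.63 and 7.90 at 4 h, and then 7.66, 7.85 and 7.90 at 8 h. After 10 h of IL1B the arrays stood at 8.02, 7.40, 7.85 and 8.17. Control arrays at 4 and 8 h all lay below every control array at 0 h, as did those at 10 h, where the highest of them nearly touched the lowest at 0 h. In knockdown cells the arrays at 4 and 10 h overlapped those at 0 h by 1 array, and those at 8 h just cleared them.

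The means of CDT1 were 7.85 ± 0.17 (SD, n = 4) at 4 h and 8.30 ± 0.23 (n = 3) at 0 h in knockdown cells, and 7.71 ± 0.18 (n = 4) at 4 h and 8.39 ± 0.17 (n = 4) at 0 h in control cells. In knockdown cells it fell at 4 h (log2 difference -0.44 ± 0.15, limma adjusted p = 0.0204) and at 10 h (-0.48 ± 0.15, adjusted p = 0.0148), and the differences at 2 h (-0.21 ± 0.15) and 8 h (-0.30 ± 0.15, adjusted p = 0.127) did not pass. In control cells it fell at every hour, with log2 differences of -0.40 ± 0.14 at 2 h (adjusted p = 0.0312), -0.68 ± 0.14 at 4 h (adjusted p = 0.00013), -0.58 ± 0.15 at 8 h (adjusted p = 0.00209) and -0.53 ± 0.14 at 10 h (adjusted p = 0.00254). The 4 h level was thus 73.5% of that at 0 h in knockdown cells and 62.4% in control cells. The call at 2 h in control cells was lost without control 0 h replicate 2 or 4 or without control 2 h replicate 1, 2 or 3, with adjusted p between 0.0623 and 0.127 and log2 differences between -0.40 and -0.33. The 4 h call in knockdown cells was lost without knockdown 0 h replicate 2 or 4 or 4 h replicate 1 or 2 (-0.44 to -0.33, adjusted p 0.0523 to 0.137), and the 10 h call without knockdown 0 h replicate 4 (-0.36, adjusted p = 0.108).

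MCM2 and MCM5, 2 subunits of the helicase ring, were lowest at later hours. MCM2 in knockdown cells stood at 9.41, 9.57 and 9.56 at 0 h, 9.30, 9.55, 9.54 and 9.50 at 2 h, 9.29, 9.36, 9.20 and 9.29 at 4 h, and then 9.38, 9.37, 9.34 and 9.27 at 8 h. The values at 10 h were 9.21, 9.13, 9.05 and 9.40. Control arrays read 9.75, 9.68, 9.75 and 9.68 at 0 h, 9.62, 9.52, 9.71 and 9.67 at 2 h, 9.63, 9.48, 9.52 and 9.65 at 4 h, and then 9.44, 9.39 and 9.40 at 8 h. After 10 h of IL1B the arrays stood at 9.39, 9.17, 9.27 and 9.48. The 4 control arrays at 0 h were tightly grouped, and every control array at 4, 8 or 10 h lay below them. In knockdown cells the arrays at 4, 8 and 10 h also all lay below those at 0 h.

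The means of MCM2 were 9.20 ± 0.15 (SD, n = 4) at 10 h and 9.51 ± 0.09 (n = 3) at 0 h in knockdown cells, and 9.33 ± 0.14 (n = 4) at 10 h and 9.71 ± 0.04 (n = 4) at 0 h in control cells. At 10 h it had fallen by 0.31 ± 0.08 in knockdown cells (limma adjusted p = 0.00211) and by 0.39 ± 0.07 in control cells (adjusted p = 4.37e-05), to 80.4% and 76.5% of the level at 0 h in the same arm. In a fit to the compared groups alone, the 10 h call in knockdown cells did not pass (-0.31, adjusted p = 0.0581), nor did it without replicate 2 of all groups (-0.26, adjusted p = 0.0549). Knockdown cells also had a call at 4 h (-0.23 ± 0.08, adjusted p = 0.0226) and none at 8 h (-0.17 ± 0.08, adjusted p = 0.0922). Control cells had a call at 8 h (-0.30 ± 0.08, adjusted p = 0.00199) and none at 4 h (-0.14 ± 0.07, adjusted p = 0.114). At 2 h neither arm passed (-0.04 ± 0.08 in knockdown and -0.08 ± 0.07 in control cells). The 4 h call in knockdown cells was lost without knockdown 0 h replicate 2 or 4 or 4 h replicate 3, at -0.20 in each case (adjusted p 0.0685 to 0.103), with array medians subtracted (-0.19, adjusted p = 0.0715) and in the fit to the compared groups (-0.23, adjusted p = 0.0769).

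MCM5 in knockdown cells measured 9.98, 10.06 and 10.24 at 0 h, 9.80, 10.08, 10.01 and 10.15 at 2 h, 9.74, 10.00, 9.88 and 9.75 at 4 h, and then 9.73, 9.75, 9.61 and 9.77 at 8 h. The values at 10 h were 9.98, 9.51, 9.64 and 9.93. In control cells it measured 10.36, 10.17, 10.46 and 10.33 at 0 h, 10.05, 10.10, 10.28 and 10.17 at 2 h, 10.04, 9.85, 9.82 and 9.96 at 4 h, and then 9.67, 9.65 and 9.50 at 8 h. After 10 h of IL1B the arrays stood at 9.67, 9.66, 9.58 and 9.77. Control arrays thus formed separate bands at 0, 4 and 8 h, each below the one before. The knockdown arrays at 8 h lay clear below those at 0 h, while at 10 h 1 of them nearly reached the lowest at 0 h.

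Mean MCM5 was 9.72 ± 0.07 (SD, n = 4) at 8 h and 10.09 ± 0.13 (n = 3) at 0 h in knockdown cells, and 9.61 ± 0.09 (n = 3) at 8 h and 10.33 ± 0.12 (n = 4) at 0 h in control cells. It fell at 8 h by 0.38 ± 0.10 in knockdown cells (limma adjusted p = 0.00317) and by 0.72 ± 0.10 in control cells (adjusted p = 3.56e-07), to 77% and 60.6% of the level at 0 h. At 10 h the differences were -0.33 ± 0.10 (adjusted p = 0.0113) and -0.66 ± 0.09 (adjusted p = 4.79e-07). Control cells already had a call at 4 h (-0.41 ± 0.09, adjusted p = 0.000433), where knockdown cells missed the threshold (-0.25 ± 0.10, adjusted p = 0.0509). The differences at 2 h did not pass in either arm (-0.08 ± 0.10 and -0.18 ± 0.09). The knockdown call at 10 h was lost without knockdown 0 h replicate 4 or 10 h replicate 2 (-0.26 and -0.25, adjusted p 0.0876 and 0.0639) and in the fit to the compared groups (-0.33, adjusted p = 0.11).

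PRIM1, the subunit of primase that joins the primer's nucleotides, had its lowest level at 4 h and stood above it at 8 and 10 h. Knockdown arrays read 8.81, 8.79 and 8.81 at 0 h, 8.35, 8.26, 8.62 and 8.61 at 2 h, 8.13, 7.99, 8.19 and 7.95 at 4 h, and then 8.50, 8.24, 8.30 and 8.41 at 8 h. The values at 10 h were 8.28, 8.40, 8.61 and 8.41. Control arrays read 9.09, 8.83, 9.02 and 9.06 at 0 h, 8.78, 8.72, 8.59 and 8.77 at 2 h, 8.25, 8.29, 8.31 and 8.01 at 4 h, and then 8.57, 8.16 and 8.55 at 8 h. After 10 h of IL1B the arrays stood at 8.45, 8.35, 8.63 and 8.50. In each arm every array after 0 h lay below every array at 0 h. The 4 h arrays lay below all 2 h arrays of their arm as well.

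Mean PRIM1 at 4 h was 8.06 ± 0.11 (SD, n = 4) in knockdown cells, against 8.80 ± 0.01 (n = 3) at 0 h, and 8.22 ± 0.14 (n = 4) in control cells, against 9.00 ± 0.12 (n = 4) at 0 h. It was called lower at all 4 hours in both arms. In knockdown cells the log2 differences were -0.34 ± 0.10 at 2 h (limma adjusted p = 0.0124), -0.74 ± 0.10 at 4 h (adjusted p = 5.35e-07), -0.44 ± 0.10 at 8 h (adjusted p = 0.00112) and -0.38 ± 0.10 at 10 h (adjusted p = 0.00561). In control cells they were -0.29 ± 0.09 at 2 h (adjusted p = 0.027), -0.79 ± 0.09 at 4 h (adjusted p = 2.45e-08), -0.57 ± 0.10 at 8 h (adjusted p = 3.21e-05) and -0.52 ± 0.09 at 10 h (adjusted p = 4.21e-05). At 4 h 59.9% of the 0 h level remained in knockdown cells and 58% in control cells. The 2 h call in knockdown cells was lost without knockdown 2 h replicate 2 (-0.28, adjusted p = 0.0604). The 2 h call in control cells was lost without control 0 h replicate 1, 3 or 4 or 2 h replicate 2 or 3 (-0.29 to -0.24, adjusted p 0.0504 to 0.102).

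UHRF1, the reader of half-methylated DNA, fell to its lowest mean at 4 h in both arms. In knockdown cells it stood at 9.30, 9.50 and 9.61 at 0 h, 9.03, 9.27, 9.12 and 9.51 at 2 h, 8.70, 9.03, 8.94 and 8.99 at 4 h, and then 9.08, 9.22, 9.32 and 9.31 at 8 h. The values at 10 h were 9.33, 9.14, 9.31 and 9.47. In control cells it stood at 9.32, 9.23, 9.49 and 9.41 at 0 h, 9.18, 9.08, 9.18 and 9.19 at 2 h, 8.85, 8.95, 8.58 and 8.80 at 4 h, and then 9.02, 8.56 and 8.85 at 8 h. After 10 h of IL1B the arrays stood at 8.99, 8.84, 8.76 and 9.10. Knockdown arrays at 8 and 10 h overlapped those at 0 h. Control arrays at 4, 8 and 10 h all stayed below those at 0 h.

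Mean UHRF1 was 8.91 ± 0.15 (SD, n = 4) at 4 h and 9.47 ± 0.16 (n = 3) at 0 h in knockdown cells, and 8.80 ± 0.16 (n = 4) at 4 h and 9.36 ± 0.11 (n = 4) at 0 h in control cells. At 4 h it had fallen by 0.55 ± 0.11 in knockdown cells (limma adjusted p = 0.000211) and by 0.56 ± 0.10 in control cells (adjusted p = 4.63e-05). In knockdown cells the differences at 2 h (-0.24 ± 0.11), 8 h (-0.24 ± 0.11, adjusted p = 0.118) and 10 h (-0.16 ± 0.11, adjusted p = 0.346) did not pass. In control cells that at 2 h did not pass (-0.20 ± 0.10, adjusted p = 0.192), and the gene was lower at 8 h (-0.55 ± 0.11, adjusted p = 0.000209) and 10 h (-0.44 ± 0.10, adjusted p = 0.00107). At 10 h the level was 89.6% of that at 0 h in knockdown cells and 73.7% in control cells.

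**Figure D2:**
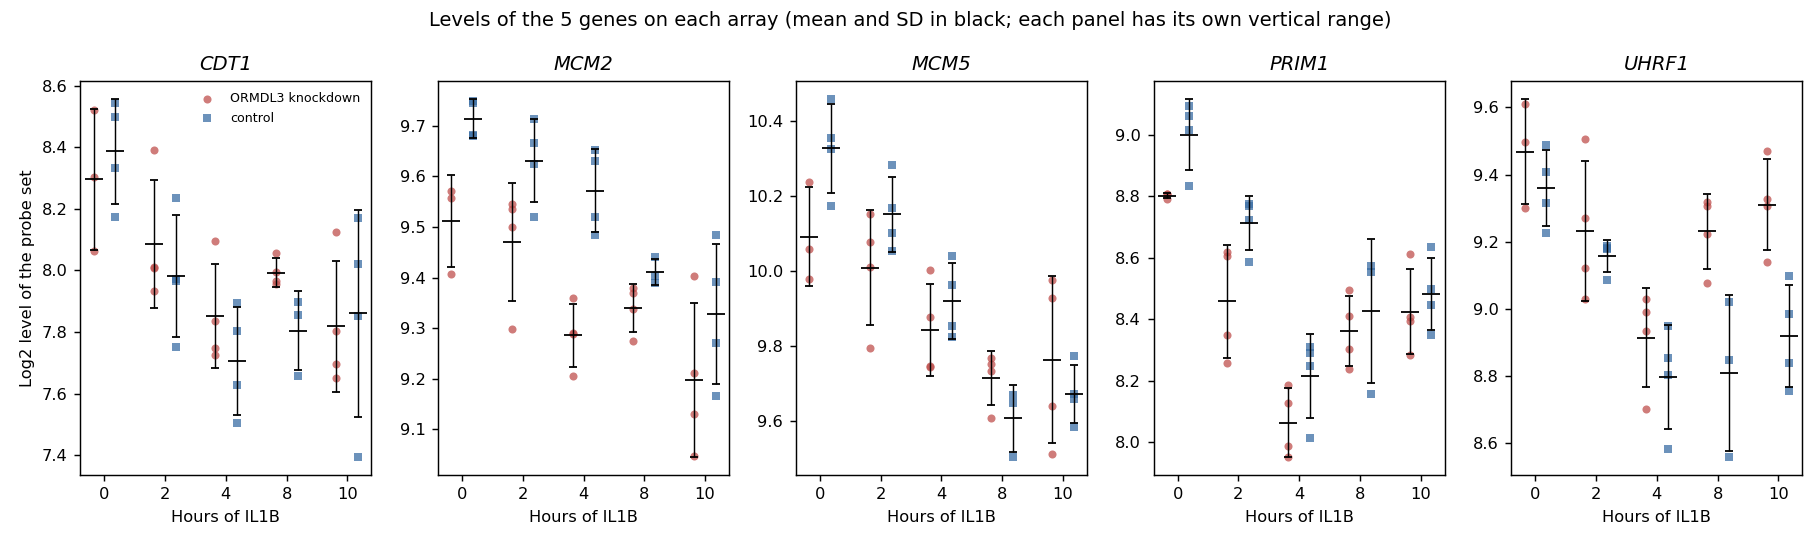
Log2 level of each gene's probe set on every array (vertical axis, own range per panel) by hours of IL1B, with knockdown arrays as red circles left of control arrays as blue squares and mean and SD in black. PRIM1 arrays after 0 h all lie below those at 0 h in their arm, and UHRF1 at 8 and 10 h lies higher in knockdown than in control arrays.

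Counted over the 5 genes, knockdown cells had 1, 4, 2 and 4 genes lower at 2, 4, 8 and 10 h. Among all probe sets 13.8%, 17.5%, 17.7% and 13.8% were lower in these comparisons. Control cells had 2, 4, 5 and 5 genes lower, and 9.77%, 20.9%, 17.9% and 17% of all probe sets were lower. For the mean of the 4 hours all 5 genes were lower in each arm, against 19% of probe sets in knockdown and 21.2% in control cells. No difference of the 5 genes from 0 h lay above 0 in either arm. The median difference of the 5 genes was -0.30 in knockdown cells, where that of all probe sets was -0.04, and -0.49 in control cells, where it was -0.02. All comparisons of one arm share that arm's 0 h arrays, so the hours are not separate evidence. Because the 5 genes were chosen with earlier results of these data known, their counts beside all probe sets are descriptions only.

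The mean differences over 4 hours in knockdown cells were -0.36 ± 0.12 for CDT1 (limma adjusted p = 0.0223), -0.19 ± 0.06 for MCM2 (adjusted p = 0.0204), -0.26 ± 0.08 for MCM5 (adjusted p = 0.0124), -0.48 ± 0.08 for PRIM1 (adjusted p = 3.66e-05) and -0.30 ± 0.09 for UHRF1 (adjusted p = 0.0135). In control cells they were -0.55 ± 0.11 for CDT1, -0.23 ± 0.06 for MCM2, -0.49 ± 0.07 for MCM5, -0.54 ± 0.08 for PRIM1 and -0.44 ± 0.08 for UHRF1, with adjusted p between 1.35e-03 for MCM2 and 4.3e-07 for PRIM1. The knockdown values rest on 3 arrays at 0 h. Without knockdown 0 h replicate 4 the calls of CDT1 (-0.25, adjusted p = 0.206), MCM2 (-0.17, adjusted p = 0.102), MCM5 (-0.19, adjusted p = 0.142) and UHRF1 (-0.23, adjusted p = 0.126) were lost. Without replicate 2 those of CDT1 (-0.35, adjusted p = 0.0805), MCM2 (-0.16, adjusted p = 0.135) and UHRF1 (-0.28, adjusted p = 0.0676) were lost. PRIM1 kept its call whichever single array was left out.

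**Figure D3:**
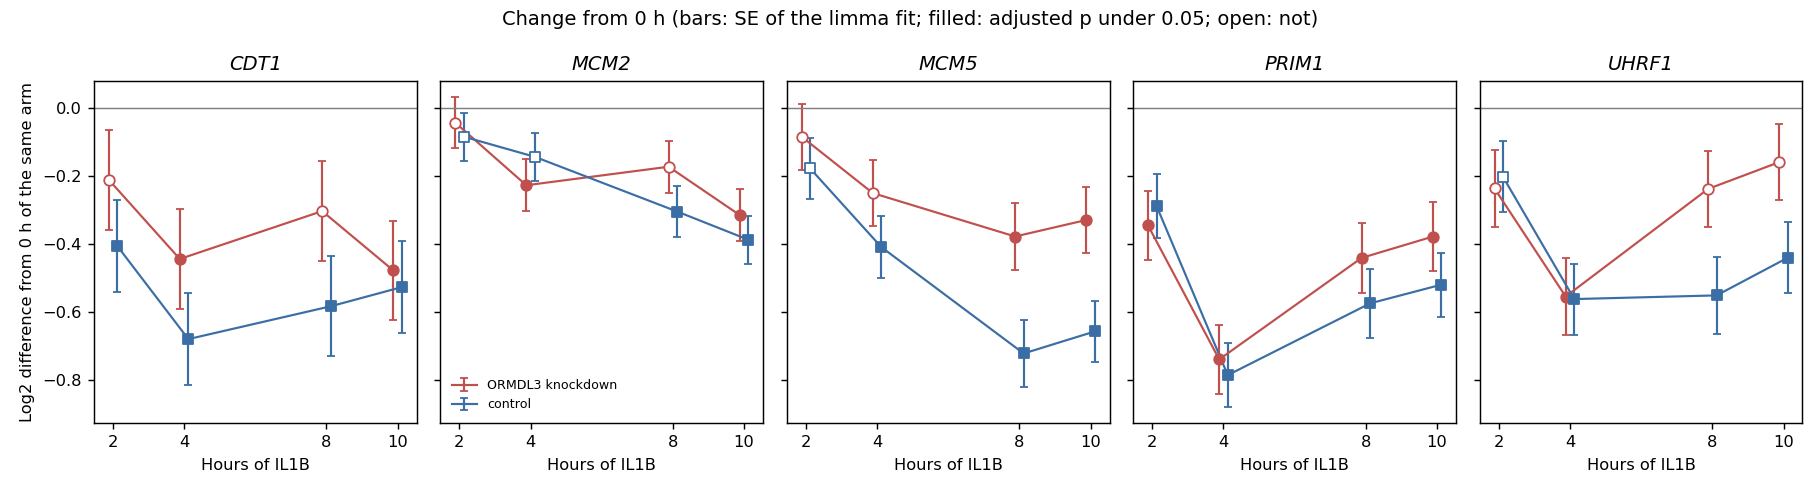
Log2 difference from 0 h of the same arm (vertical axis) at 2, 4, 8 and 10 h of IL1B for each gene, with SE bars, knockdown in red circles and control in blue squares, filled where the adjusted p was under 0.05. Every point lies below 0. PRIM1 is lowest at 4 h in both arms, and MCM5 in control cells is lowest at 8 h with -0.72. UHRF1 dips at 4 h in knockdown cells, and in control cells it is about as low at 8 h (-0.55) as at 4 h (-0.56).

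Steps between neighbouring hours were tested next. PRIM1 fell further between 2 and 4 h, by 0.39 ± 0.09 in knockdown cells (limma adjusted p = 0.00341) and by 0.50 ± 0.09 in control cells (adjusted p = 0.00026). UHRF1 did so too, by 0.32 ± 0.10 (adjusted p = 0.0355) and by 0.36 ± 0.10 (adjusted p = 0.0168). These were 2 of 5 genes in each arm, against 6.81% of all probe sets lower at 4 than at 2 h in knockdown and 6.85% in control cells. Between 4 and 8 h both genes rose again in knockdown cells, PRIM1 by 0.30 ± 0.09 (adjusted p = 0.0196) and UHRF1 by 0.32 ± 0.10 (adjusted p = 0.025), where 9.8% of all probe sets were higher. In control cells the same step gave 0.21 ± 0.10 for PRIM1 (adjusted p = 0.154) and 0.01 ± 0.11 for UHRF1 (adjusted p = 0.964), and neither passed. Whether a step differed between the arms was not tested. MCM5 in control cells fell between 4 and 8 h by 0.31 ± 0.10 (adjusted p = 0.0183), 1 of 5 genes against 10.6% of probe sets. From 8 to 10 h none of the 5 genes was called in either arm by limma, also at an unadjusted p under 0.05, and the share of all probe sets called was 2.33% in knockdown and 2.88% in control cells.

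Single arrays decided several of these steps. The UHRF1 step from 2 to 4 h in knockdown cells was lost without knockdown 2 h replicate 2 or 4 or 4 h replicate 1 or 3 (-0.33 to -0.23, adjusted p 0.0585 to 0.164) and in the fit to the compared groups (-0.32, adjusted p = 0.115). Leaving out control 4 h replicate 3 ended the call in control cells (-0.29, adjusted p = 0.0911). The UHRF1 rise from 4 to 8 h in knockdown cells depended on knockdown 4 h replicate 1 and 8 h replicates 3 and 4, without any of which it was lost (0.25 to 0.29, adjusted p 0.066 to 0.117), and the PRIM1 rise on knockdown 4 h replicates 2 and 4 and 8 h replicate 1 (0.25 to 0.27, adjusted p 0.0554 to 0.0793). The MCM5 step was lost without control 4 h replicate 1 or 8 h replicate 3 (-0.27 and -0.26, adjusted p 0.0641 and 0.112). The PRIM1 fall from 2 to 4 h was kept in both arms whichever single array was left out.

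Ordered by their 10 group means, the genes differed in how many neighbours stood apart by more than the larger of their SDs. For PRIM1 this held for 5 of 9 neighbouring pairs, with control at 0 h (9.00), knockdown at 0 h (8.80) and control at 2 h (8.71) at the top, and control (8.22) and knockdown (8.06) at 4 h at the bottom. For MCM2 it held for 2 pairs, control at 0 h (9.71) with control at 2 h (9.63), and control (9.41) with knockdown (9.34) at 8 h. Control at 4 h (9.57) stood above knockdown at 0 h (9.51) by less than the larger SD, and knockdown at 10 h (9.20) was lowest. MCM5 had 1 such pair, between control at 0 h (10.33) and control at 2 h (10.15), and control at 8 h (9.61) was lowest. UHRF1 had 1, between control at 2 h (9.16) and control at 10 h (8.92), with all knockdown groups but that at 4 h above the gap. CDT1 had none, with control at 0 h (8.39) highest and control at 4 h (7.71) lowest.

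Averaged over the 5 hours, 3 of the 5 genes differed between knockdown and control cells. MCM2 was lower by 0.17 ± 0.03 (limma adjusted p = 0.000195, 88.9% of control), and its knockdown means lay under the control means at all 5 hours. PRIM1 was lower by 0.15 ± 0.04 (adjusted p = 0.014, 90.4% of control), also with the same sign at all 5 hours. UHRF1 was higher by 0.22 ± 0.05 (adjusted p = 0.000809, 117% of control), again with 1 sign throughout. CDT1 (0.06 ± 0.06, 95% interval -0.07 to 0.19) and MCM5 (-0.05 ± 0.04, interval -0.14 to 0.03) did not pass. These were 2 genes lower and 1 higher, against 12.1% of all probe sets lower and 10.9% higher.

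By hour the knockdown differences of MCM2 were -0.20 ± 0.08 at 0 h, -0.16 ± 0.07 at 2 h, -0.29 ± 0.07 at 4 h, -0.07 ± 0.08 at 8 h and -0.13 ± 0.07 at 10 h, and only that at 4 h was called (limma adjusted p = 0.0225). At 0, 4 and 8 h no knockdown array of MCM2 reached any control array, though at 8 h by a narrow margin. PRIM1 at 0 h and CDT1 at 8 h also had no overlap between the arms, and neither difference was called. The share of all probe sets without overlap was not counted, so these are descriptions only. The 4 h call was lost without knockdown 4 h replicate 3 or 4 or control 4 h replicate 1 or 4 (-0.29 to -0.26, adjusted p 0.0613 to 0.0893), with quantile normalization (-0.27, adjusted p = 0.0506) and in the fit to the compared groups (-0.29, adjusted p = 0.171). PRIM1 had differences of -0.20 ± 0.10, -0.26 ± 0.09, -0.15 ± 0.09, -0.06 ± 0.10 and -0.06 ± 0.09 in the order of the hours, and none was called. Its 2 h difference had an unadjusted p of 0.0108 and an adjusted p of 0.0986.

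UHRF1 differed between the arms by 0.11 ± 0.11 at 0 h, 0.07 ± 0.10 at 2 h and 0.12 ± 0.10 at 4 h, none of them called. It was higher in knockdown cells by 0.42 ± 0.11 at 8 h (limma adjusted p = 0.0339) and by 0.39 ± 0.10 at 10 h (adjusted p = 0.0386), where its means were 9.23 ± 0.11 and 9.31 ± 0.14 (SD, n = 4 each) in knockdown against 8.81 ± 0.23 (n = 3) and 8.92 ± 0.15 (n = 4) in control cells. No array overlapped between the arms at these hours, again without a share of all probe sets to set beside it. Both calls depended on single arrays. That at 8 h was lost without knockdown 8 h replicate 2, 3 or 4 or control 8 h replicate 2 or 3 (0.30 to 0.44, adjusted p 0.0574 to 0.213), and that at 10 h without knockdown 10 h replicate 1, 3 or 4 or control 10 h replicate 1, 2 or 3 (0.34 to 0.41, adjusted p 0.0622 to 0.174). In the fit to the compared groups neither passed (adjusted p 0.144 at 8 h and 0.13 at 10 h).

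CDT1 and MCM5 had no called knockdown difference at any hour. Those of CDT1 lay between -0.09 ± 0.15 at 0 h and 0.19 ± 0.15 at 8 h, and those of MCM5 between -0.24 ± 0.10 at 0 h (adjusted p = 0.219) and 0.11 ± 0.10 at 8 h. Over all 5 genes, limma called 0, 0, 1, 1 and 1 at 0, 2, 4, 8 and 10 h. The shares of all probe sets called in either direction were 3.31%, 6.18%, 1.84%, 2.88% and 2.28%. At an unadjusted p under 0.05 there were 2 of the 5 genes at 0 h (MCM2 and MCM5) and 2 at 2 h (MCM2 and PRIM1), where 15% and 22.7% of all probe sets had such a p.

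**Figure D4:**
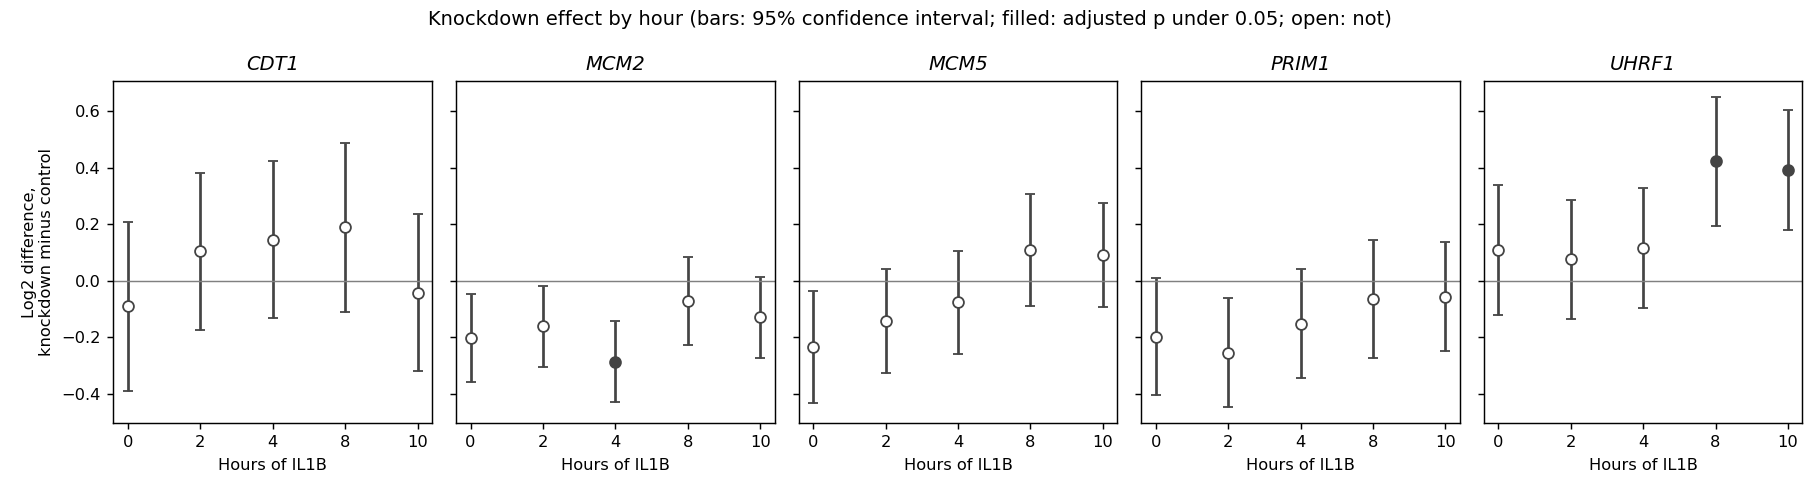
Log2 difference between knockdown and control cells (vertical axis, knockdown minus control) at each hour for each gene, with 95% confidence intervals, filled where the adjusted p was under 0.05. MCM2 lies below 0 and UHRF1 above 0 at all 5 hours, and the filled points are MCM2 at 4 h and UHRF1 at 8 and 10 h.

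The difference in response, the IL1B change in knockdown cells minus that in control cells, tests whether knockdown altered the decline. Averaged over 4 hours it was 0.19 for CDT1 (95% interval -0.14 to 0.52), 0.04 for MCM2 (-0.13 to 0.21), 0.23 for MCM5 (0.01 to 0.45), 0.07 for PRIM1 (-0.16 to 0.30) and 0.14 for UHRF1 (-0.11 to 0.40). MCM5 had the smallest adjusted p in limma's fit, at 0.471. At 8 h the differences of MCM5 and UHRF1 were 0.34 (0.06 to 0.63, adjusted p = 0.358) and 0.31 (-0.01 to 0.64, adjusted p = 0.489), and at 10 h 0.33 (0.06 to 0.60, adjusted p = 0.743) and 0.28 (-0.03 to 0.59, adjusted p = 0.886). Limma called 0 of the 5 genes at any hour, for the mean or in the joint F test over the hours, where the unadjusted p were 0.0638 for MCM5 and 0.066 for UHRF1 and at least 0.318 for the other genes. At an unadjusted p under 0.05 there was 1 gene, MCM5, at 8 h, at 10 h and for the mean, beside 10.6%, 6% and 10.3% of all probe sets. Of all probe sets 0.0276%, 0.069%, 0.228% and 0.0828% were called at 2, 4, 8 and 10 h, 0.235% for the mean and 0.166% by the joint test.

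The other genes of the replication machinery were taken as 7 lists, from licensing to the breakdown of CDT1. Of their 72 genes 69 were measured, and the 5 genes above were left out. The lists were chosen with earlier results of these data known, so their counts and medians beside all probe sets are descriptions only. In knockdown cells 35 of the 69 were lower and 0 higher over the mean of 4 hours, with a median of -0.22 against -0.04 for all probe sets. In control cells 31 were lower and 4 higher, with a median of -0.16 against -0.02. Of all probe sets 12.1% were higher in knockdown and 18.1% in control cells, beside the shares of lower ones given above.

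In the licensing list 8 of 13 genes were lower in knockdown and 6 of 13 in control cells. ORC1, the largest subunit of the origin recognition complex, fell by 0.52 ± 0.12 in knockdown (limma adjusted p = 0.00138) and by 0.47 ± 0.11 in control cells (adjusted p = 0.00087). ORC3, another subunit, fell by 0.43 ± 0.07 (adjusted p = 3.84e-06) and by 0.41 ± 0.06 (adjusted p = 9.18e-07). The other ring subunits split: MCM3 (-0.20 ± 0.07 in knockdown and -0.34 ± 0.07 in control cells), MCM4 (-0.24 ± 0.07 and -0.31 ± 0.06) and MCM6 (-0.41 ± 0.06 and -0.34 ± 0.06) were lower in both arms, and MCM7 (-0.09 ± 0.07 in each) passed in neither. CDC6, which loads the ring together with CDT1, did not pass either (-0.07 ± 0.10 and -0.09 ± 0.09). GMNN, which encodes geminin, the inhibitor of CDT1, was lower in knockdown (-0.50 ± 0.13, adjusted p = 0.00223), and its control difference did not pass (-0.16 ± 0.11). In control cells at 8 h MCM3, MCM4 and MCM6 had log2 differences of -0.49, -0.51 and -0.56, all called, while that of MCM7 was -0.08 there and was first called at 10 h (-0.36).

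Of the genes that switch the ring on, 7 of 13 were lower in each arm and 0 higher. GINS3, a subunit of the GINS complex that joins the ring in the active helicase, fell by 0.31 ± 0.08 in knockdown (limma adjusted p = 0.00233) and by 0.48 ± 0.07 in control cells (adjusted p = 8.13e-07). GINS2 of the same complex fell by 0.47 ± 0.14 (adjusted p = 0.0092) and by 0.48 ± 0.13 (adjusted p = 0.00254). WDHD1, which links the helicase to polymerase alpha, fell by 0.62 ± 0.12 (adjusted p = 0.000176) and by 0.36 ± 0.11 (adjusted p = 0.00847). Leaving out control 0 h replicate 1 ended the WDHD1 call in control cells (-0.29, adjusted p = 0.0663). MCM10, a factor needed for origin firing, fell by 0.40 ± 0.10 (adjusted p = 0.00244) and by 0.34 ± 0.09 (adjusted p = 0.00326). CDC7, the kinase that phosphorylates the ring, was lower in knockdown than in control cells as a mean over the hours. The log2 difference was -0.21 ± 0.05 (limma adjusted p = 0.00307). At 0 h, before IL1B, the arms were alike, at 6.64 ± 0.04 in knockdown and 6.65 ± 0.27 in control cells. The gap between the arm means thus lay at the hours after IL1B. The difference in response, averaged over those hours, was called for 0 of the 13 genes, CDC7 included. A knockdown effect on CDC7 that depends on IL1B was therefore not shown. CDC7 levels were low, at 6.29 and 6.50 over the hours, where array medians lay between 8.02 and 8.19.

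Among primase and polymerase genes 5 of 11 were lower in knockdown and 7 of 11 in control cells, and 0 were higher. PRIM2, the partner of PRIM1, fell by 0.32 ± 0.12 in knockdown (limma adjusted p = 0.0417) and by 0.31 ± 0.11 in control cells (adjusted p = 0.0209), and the control call was lost without control 0 h replicate 1, 2 or 3 (-0.30 to -0.23, adjusted p 0.0608 to 0.141). POLA1, the catalytic subunit of the polymerase that extends the primers, was lower in both arms (-0.28 ± 0.08 in knockdown and -0.28 ± 0.07 in control cells), whereas its partner POLA2 did not pass (-0.10 ± 0.07 and -0.09 ± 0.07). At 4 h, where PRIM1 was lowest, the log2 difference of PRIM2 was -0.32 in knockdown and -0.31 in control cells and that of POLA1 -0.20 in both, and none of these passed. POLE, the catalytic subunit of polymerase epsilon, was lower in control cells (-0.33 ± 0.08, adjusted p = 0.000593) and did not pass in knockdown (-0.16 ± 0.08). POLE2 (-0.49 ± 0.10 and -0.30 ± 0.09) and POLD4, a small subunit of polymerase delta (-0.28 ± 0.11 and -0.36 ± 0.10), were lower in both.

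At the fork 8 of 15 genes were lower and 0 higher in knockdown cells, and 5 lower and 1 higher in control cells. RFC4, a subunit of the clamp loader, fell by 0.47 ± 0.07 in knockdown (limma adjusted p = 1.94e-06) and by 0.40 ± 0.06 in control cells (adjusted p = 2.42e-06). LIG1, the ligase that seals Okazaki fragments, was lower in both (-0.28 ± 0.07 and -0.34 ± 0.06). TIPIN, of the fork protection complex, was higher in control cells (0.33 ± 0.10, adjusted p = 0.0103), a call that ended when control 0 h replicate 4 was left out (0.28, adjusted p = 0.0611), and its mean did not pass in knockdown (0.03 ± 0.12). By hour TIPIN in knockdown cells was higher at 4 h (0.40 ± 0.14, adjusted p = 0.0273), which ended when any 1 of 4 arrays was left out (0.27 to 0.41, adjusted p 0.0562 to 0.142), and differed by -0.31 ± 0.14 at 8 h (adjusted p = 0.0998). For nucleotide supply 3 of 5 genes were lower in knockdown and 2 of 5 in control cells, with thymidylate synthase, TYMS, at -0.26 ± 0.06 and -0.28 ± 0.05 and thymidine kinase 1, TK1, at -0.16 ± 0.06 and -0.29 ± 0.06.

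Partners of UHRF1 were counted next. DNMT1, the methyltransferase that UHRF1 recruits, did not pass in either arm (-0.04 ± 0.07 in knockdown and -0.11 ± 0.06 in control cells). Of the 6 genes for maintenance methylation and chromatin assembly 1 was lower in each arm. That gene was CHAF1B, a subunit of the histone chaperone CAF-1, at -0.36 ± 0.12 (limma adjusted p = 0.0263) and -0.43 ± 0.11 (adjusted p = 0.00213). In control cells 2 genes were higher, USP7, a deubiquitinase that binds UHRF1 (0.23 ± 0.07, adjusted p = 0.0101), and HELLS, a chromatin remodeller (0.18 ± 0.07, adjusted p = 0.0494). The HELLS mean covers hours of unlike sign, with control levels of 8.40, 8.79, 8.94, 8.30 and 8.29 at 0, 2, 4, 8 and 10 h. Without control 0 h replicate 2 or 3 the USP7 call was lost (0.20 and 0.21, adjusted p 0.0598 and 0.0501), and the HELLS call was lost when any 1 of 22 arrays was left out (0.16 to 0.20, adjusted p 0.0503 to 0.127).

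The ubiquitin ligases that remove CDT1 protein had 2 receptors that were lower in both arms. SKP2, the substrate receptor of one of them, fell by 0.53 ± 0.09 in knockdown (limma adjusted p = 1.34e-05) and by 0.60 ± 0.08 in control cells (adjusted p = 1.46e-07). DTL, the receptor of the other, fell by 0.55 ± 0.09 (adjusted p = 2.52e-05) and by 0.58 ± 0.08 (adjusted p = 1.05e-06). Both were already lower at 2 h, SKP2 with -0.51 in knockdown and -0.58 in control cells, and DTL with -0.42 and -0.32, and the last of these calls ended when any 1 of 5 arrays was left out (-0.31 to -0.26, adjusted p 0.058 to 0.12). CUL4B, a scaffold of the second ligase, was lower in both (-0.43 ± 0.06 and -0.25 ± 0.06), while CUL4A was higher in control cells (0.15 ± 0.05, adjusted p = 0.0216). Leaving out control 0 h replicate 3 ended the CUL4A call (0.10, adjusted p = 0.165). Of the 6 genes of these ligases 3 were lower in each arm.

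Some regulators of S phase entry were called. Of 11 measured E2F, DP and pocket protein genes 4 were lower in each arm and 0 higher. These included E2F2, an activating E2F (-0.59 ± 0.09 in knockdown and -0.50 ± 0.08 in control cells), E2F8 and E2F7, which act as repressors (-0.47 ± 0.08 and -0.45 ± 0.07, and -0.29 ± 0.09 and -0.40 ± 0.08), and RBL1, a pocket protein (-0.37 ± 0.06 in each). The level of E2F2 was low, with group means between 5.73 and 6.54, where array medians lay between 8.02 and 8.19. E2F1 did not pass (-0.06 ± 0.07 and -0.13 ± 0.06). Of 12 cyclin, kinase and inhibitor genes 3 were lower in knockdown, against 1 lower and 2 higher in control cells. The 2 higher genes encode the inhibitors p27, CDKN1B (0.22 ± 0.07, limma adjusted p = 0.0189), and p21, CDKN1A (0.21 ± 0.08, adjusted p = 0.0272). Neither mean was called in knockdown cells (0.15 ± 0.08 and 0.07 ± 0.09). The CDKN1B means cover hours of unlike sign. Its levels at 0, 2, 4, 8 and 10 h were 9.31, 8.92, 9.54, 9.64 and 9.74 in knockdown cells. In control cells they were 9.13, 8.88, 9.35, 9.57 and 9.59. Without control 0 h replicate 1 or 3 the CDKN1B call was lost (0.21 and 0.18, adjusted p 0.0581 and 0.0909), as was the CDKN1A call without control 0 h replicate 3 or 4 (0.22 and 0.12, adjusted p 0.0565 and 0.251).

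Genes of mitosis were counted in the same way. In knockdown cells 6 of 20 were lower and 0 higher, with a median of -0.13, and in control cells 2 were lower and 4 higher, with a median of -0.03. These means cover hours of unlike sign. In knockdown cells 9, 7, 3 and 3 of the 20 were lower and 0, 0, 3 and 1 higher at 2, 4, 8 and 10 h. In control cells 2, 7, 2 and 2 were lower and 0, 1, 6 and 3 higher. The shares of all probe sets lower at these hours are given above. Those of higher ones by hour are not given here, so the counts of higher genes cannot be set against them. CDCA8, of the chromosomal passenger complex, fell by 0.25 ± 0.08 in knockdown and by 0.26 ± 0.07 in control cells, and KIF11, a spindle motor, was also lower in both (-0.33 ± 0.07 and -0.24 ± 0.06). AURKA, a mitotic kinase, was higher in control cells (0.22 ± 0.07, limma adjusted p = 0.00998), as was CENPE, a kinetochore motor (0.25 ± 0.08, adjusted p = 0.017), and neither mean was called in knockdown cells (0.06 ± 0.08 and 0.08 ± 0.09). By hour AURKA in knockdown cells was lower at 2 h (-0.36 ± 0.09, adjusted p = 0.00355) and higher at 8 h (0.35 ± 0.09, adjusted p = 0.00368). Adjusted for the small nucleolar RNA level, AURKA did not pass (0.12, adjusted p = 0.159). The CENPE call ended when control 0 h replicate 3 was left out (0.19, adjusted p = 0.121). MKI67, the common marker of cycling cells, did not pass in either arm (-0.10 ± 0.10 and -0.19 ± 0.09).

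Several of these calls in knockdown cells rested on the 3 arrays at 0 h. Leaving out knockdown 0 h replicate 1 ended those of GINS2, POLD4, PRIM2, TK1, CHAF1B, E2F7 and CDCA8, with adjusted p between 0.0534 for E2F7 and 0.504 for PRIM2, where the log2 difference of PRIM2 was -0.15 and that of CDCA8 -0.16. Without replicate 2 those of MCM3, GINS2, POLD4, PRIM2, TK1, CHAF1B and E2F7 ended, with adjusted p between 0.0779 for TK1 and 0.181 for CHAF1B. Without replicate 4 those of MCM3, MCM4, LIG1 and TK1 ended, with adjusted p between 0.0652 for LIG1 and 0.224 for MCM3. Counting arrays of every group, POLD4 lost its call without any 1 of 9 arrays, PRIM2 of 7 and TK1 of 19.

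**Figure D5:**
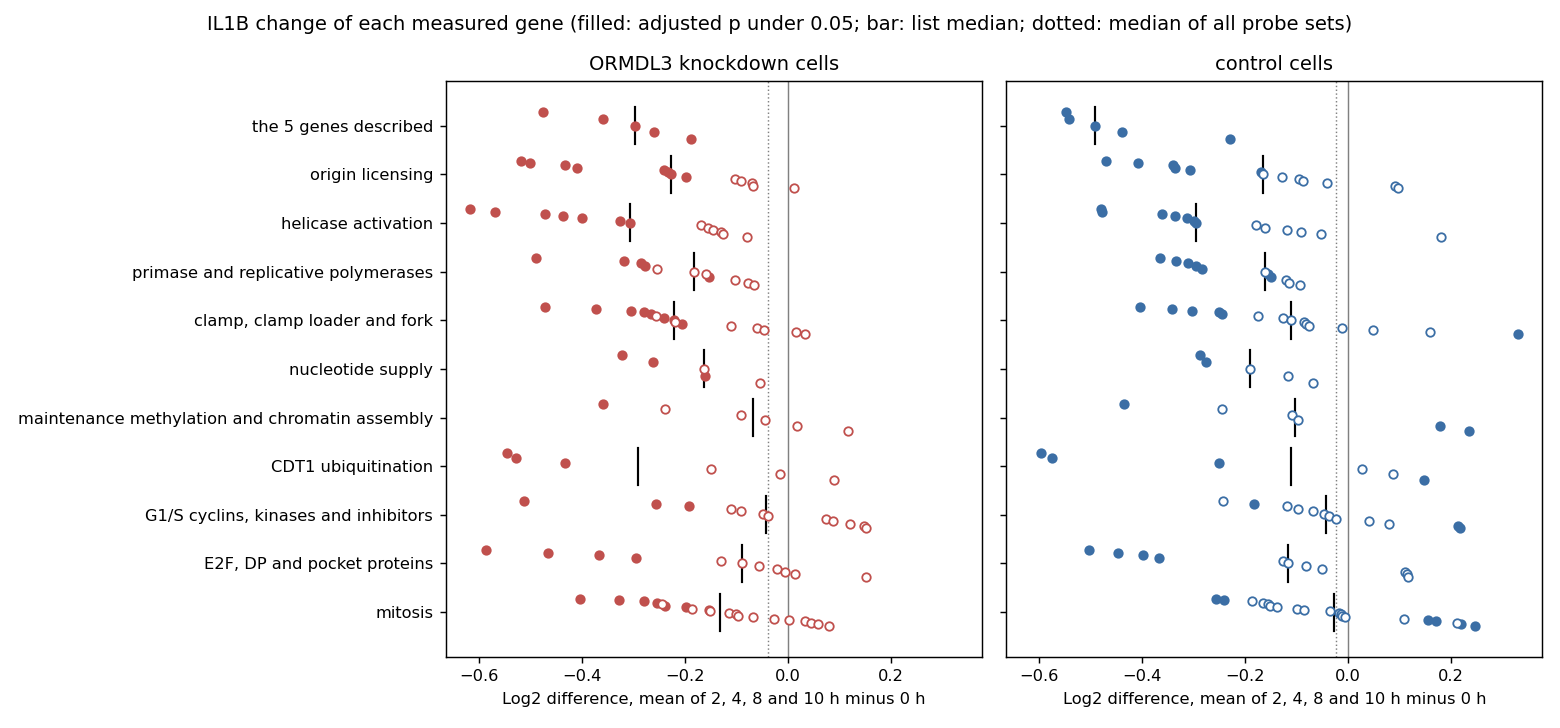
Log2 difference between the mean of 2, 4, 8 and 10 h and 0 h (horizontal axis) of each measured gene by list, with knockdown cells on the left and control cells on the right, filled where the adjusted p was under 0.05, a bar at each list's median and a dotted line at the median of all probe sets. The 5 genes described and most replication lists lie left of 0, whereas mitosis genes in control cells spread to both sides.

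As a mean over 5 hours, 12 of the 69 replication genes were lower in knockdown than in control cells and 2 were higher. The median was -0.07 against -0.01 for all probe sets, of which 12.1% were lower and 10.9% higher. At 0 h, before IL1B, the median of the 69 was -0.01, against 0.01 for all probe sets. At single hours 0, 4, 0, 0 and 0 were lower and 0 higher at 0, 2, 4, 8 and 10 h. Besides CDC7, examples were POLD1, the catalytic subunit of polymerase delta (-0.17 ± 0.03, limma adjusted p = 0.000459), and POLE4 (-0.16 ± 0.04, adjusted p = 0.00478). CUL4B (0.10 ± 0.03, adjusted p = 0.0212) and TYMS (0.09 ± 0.03, adjusted p = 0.0327) were the 2 higher genes, and TYMS lost its call when any 1 of 7 arrays was left out (0.07 to 0.08, adjusted p 0.0502 to 0.07). Among the lower genes, GINS4, TIMELESS, CHAF1B, RFC4 and HELLS lost theirs without any 1 of 20, 21, 19, 13 and 4 arrays, in that order. CDC7, POLD1, POLE4, RFC3 and TK1 kept theirs whichever single array was left out. Of the 12 cyclin, kinase and inhibitor genes 3 were higher and 1 lower. Among the higher ones were CDK6 (0.24 ± 0.03, adjusted p = 2.89e-06) and CCND1, cyclin D1 (0.20 ± 0.03, adjusted p = 3.33e-05). The lower gene was CCND3, cyclin D3 (-0.13 ± 0.03, adjusted p = 0.000774). Of the 11 E2F, DP and pocket protein genes 5 were lower and 0 higher, among them E2F4, an E2F that works mainly in repression (-0.18 ± 0.03, adjusted p = 6.84e-05).

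Likeness was measured as Pearson's r of log2 levels over the 38 arrays, beside r of the deviations from the 10 group means. These are descriptions, since arrays share their group and hour. Among the 10 pairs of the 5 genes r lay between 0.24 for MCM2 with UHRF1 and 0.79 for MCM2 with MCM5. For the deviations it lay between -0.11 for MCM2 with PRIM1 and 0.64 for MCM2 with MCM5, so the 2 ring subunits were the most alike by both measures. PRIM1 had deviations nearly unrelated to those of CDT1 (-0.07), MCM2 and MCM5 (-0.10).

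Outside the 5 genes, MCM5 was most like DIPK1B (0.90, deviations 0.47), MTARC1 (0.90, deviations 0.80) and MCM3 (0.89, deviations 0.78). For PRIM1 these were RFC4 (0.89, deviations 0.56), DBP (0.87, deviations 0.04) and TARBP1 (0.87, deviations 0.51). MCM2 was most like CRIP3 (0.83, deviations 0.35), TK1 (0.82, deviations 0.44) and ABHD14A (0.82, deviations 0.30). Those nearest to CDT1 were SLC2A4RG (0.82, deviations 0.57), PLCD3 (0.81, deviations 0.78) and PATZ1 (0.80, deviations 0.55), and those nearest to UHRF1 were DAGLA (0.82, deviations 0.43), JAG2 (0.82, deviations 0.58) and FAM120B (0.81, deviations 0.63). Replication genes of the lists thus stood among the 3 nearest of MCM2, MCM5 and PRIM1, with 1 gene each.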

How the data were processed

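RNA from 38 samples of A549 cells was hybridised to Affymetrix arrays. The authors deposited 1 table of log2 expression values per probe set, without missing values. Per the submitters' processing notes, limma 3.22.7, RMA, Affymetrix Power Tools and hg19 were used, and no role or order is stated there. The sources used here do not give the choice of probe sets, and collections at 6 and 24 h named in the protocol are not analysed here. The platform annotation, from which genes were named, gave 1 symbol for 12132 probe sets, several for 628 and none for 1728. No further normalization or filter was applied. The number of arrays limits the precision.

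Limma 3.58.1 in R 4.3.3 fitted the means of the 10 groups jointly, with empirical Bayes moderation, and the fit was checked on simulated data. Each of 27 contrasts had its p-values adjusted (Benjamini-Hochberg) across the 14488 probe sets. The members and the gene lists were chosen with earlier results of these data known. From each list, the rule for naming took up to 4 genes with the largest called IL1B change in control cells and up to 2 with the largest called knockdown effect, and CDC6, GMNN, MCM4, MCM7, POLA1, POLA2, DNMT1, E2F1, MKI67 and CCND3 were added after their values were seen. For several probe sets of a gene the one with the highest mean was used. Likeness took the 3 genes with the highest r. No 2 arrays were identical. Alternatives were the replicate number as a fixed or random block, single arrays or replicate numbers left out, quantile normalization, array medians subtracted, dim probe sets left out, a variance trend, array weights, a fit to the compared groups only and a covariate for the level of small nucleolar RNAs.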

Additional observations from a re-analysis of the deposited data

Results flagged for a closer look

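UHRF1 in control cells at 2 h had 1 array apart from its group. Replicate 2 stood at 9.08 and the nearest of the other 3 at 9.18, and this gap took a share of 0.900 of the group's range. It was the only one of 40 groups of 4 arrays among the values of the 5 genes that passed Dixon's 95% limit, where chance passes about 1 in 20. The whole range of that group was small, with an SD of 0.05, and the 2 h difference of UHRF1 in control cells was not called.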

How the results depend on the processing

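Of the 50 calls of the 5 genes, 25 were kept under every alternative that tested them, and 25 were lost under 1 or more (a call can count under several), 24 with a replicate number left out, 19 with a single array left out, 7 in the fit to the compared groups, 4 with a covariate for small nucleolar RNAs, 3 with array medians subtracted, 2 with array weights and 1 with quantile normalization. In control cells all 5 mean calls over 4 hours were kept by each of the 51 alternatives that tested the gene, and CDT1 was not tested without dim probe sets. The CDT1 call in control cells was lost at 8 h with a covariate for small nucleolar RNAs (-0.36, adjusted p = 0.062) and at 10 h without replicate 2 of all groups (-0.33, adjusted p = 0.109). The PRIM1 knockdown effect was lost without replicate 1 of all groups (-0.12, adjusted p = 0.152). In knockdown cells the number of the 5 genes lower over 4 hours was 3 with array medians subtracted, and it ranged between 1 and 5 with arrays or replicate numbers left out. The number lower through knockdown was 1 without replicate 1. Lower at 4 than at 2 h were 1 to 2 genes in control cells and 0 to 3 in knockdown cells with arrays or numbers left out, and 1 in knockdown cells with array weights, with the covariate or in the fit to the compared groups. The difference in response of MCM2 changed sign, to -0.031 with the covariate and -0.012 without knockdown 0 h replicate 1, and it ranged between -0.012 and 0.070 with single arrays left out. The cause was not tested for any of these.

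Over all probe sets, leaving out dim ones, with 7244 kept and so fewer tested, gave 2651 calls for IL1B in knockdown, 3304 for IL1B in control cells and 2178 for knockdown, against 4501, 5688 and 3332. Array weights gave 6825 calls for IL1B in knockdown cells. With replicate numbers or arrays left out these ranged between 2786 and 4584 for IL1B in knockdown cells and between 2131 and 3615 for knockdown, and the replication genes lower in knockdown cells between 21 and 35, or between 23 and 35 with single arrays alone left out. Subtracting array medians changed the split for IL1B in knockdown cells to 2151 higher and 2178 lower, against 1750 and 2751. Same-numbered arrays shared part of their deviations, which correlated at over 0.1 in 107 of 162 pairs (median r 0.18). The median r was -0.06 for 487 pairs with another number, and 29 of 38 arrays were most like one of their own number. The main fit left the replicate number out. With the replicate number as a fixed block 6307 probe sets were called for IL1B in control cells, 5103 in knockdown cells and 3890 for knockdown. Among the calls run with that block (those of the 5 genes, the named list genes' mean calls and some hourly calls), it ended HELLS in control cells (0.18, adjusted p = 0.0522) and TK1 in knockdown cells (-0.14, adjusted p = 0.0505) and no other.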
